A study of Homo sapiens with 4 samples.

Results

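LINC00426 and PCED1B-AS1 are long non-coding RNA (lncRNA) genes known mainly from blood and lymphoid cells, and both gave signal in HUH7 cells, an established hepatocellular carcinoma line. Every row of the deposited table whose transcript belongs to either gene in the GENCODE annotation was taken, which gave 20 of 19835 rows, 9 for LINC00426 and 11 for PCED1B-AS1. The genes were chosen by their measured levels, isoform shares and repeat content, so these are given as descriptions and are not tested. The data are 4 RNA sequencing libraries of 1 group, HUH7 cells in culture with no treatment named, called replicates 1 to 4. The letters H and L in their titles are internal names according to the submitters, and no test was made by them. The letters are named below only for PCED1B-AS1-202 and MIR3142HG, picked after their values were seen to follow them. Other rows and genes given below split by the letters as fully. LINC00426-201, LINC01857, FAM99A and APOA1-AS were higher in both libraries titled with H, and MIR181A1HG and EGOT in both titled with L. Nothing is read from these splits. The libraries were strand-specific and depleted of ribosomal RNA, although the labels name the molecule as polyA RNA. Separate cultures are not named in the labels, and the spread between libraries may therefore be technical. Values are FPKM, fragments scaled to transcript length and to the mapped fragments of the library, and errors are SD over n = 4 libraries. The steps between low values gave estimated depths of about 4510000 to 5030000 fragments on non-coding transcripts.

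A lncRNA gene usually makes several spliced isoforms, and RNA sequencing tells them apart only by the exons and junctions that they do not share. Many lncRNA exons derive from transposable elements. Alu elements are the most numerous of these in primates, arose from 7SL RNA, the RNA of the signal recognition particle, and lie in the genome in both orientations. A short read from such an exon can match many places, also in transcripts of other genes. LINC00426 is an intergenic gene and PCED1B-AS1 is an antisense gene, transcribed from the strand opposite PCED1B, which encodes a protein of the PC-esterase domain family.

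LINC00426 (ENSG00000238121) lies on the minus strand at chr13:30914404-30951282 of GRCh37 and spans 36.9 kb. The nearest coding genes are KATNAL1, which encodes a katanin-like microtubule-severing enzyme, at 32.7 kb, and UBE2L5, at 45.3 kb, and no row of LINC00426 overlaps a coding exon. PCED1B-AS1 (ENSG00000247774) lies on the minus strand at chr12:47599676-47610270, spans 10.6 kb and sits inside the body of PCED1B, which runs along the plus strand at chr12:47473386-47630445. Its rows overlap coding exons of the opposite strand by 0 to 213 nt and none of the same strand. As the strand setting of the alignment is not stated, reads of PCED1B over these bases cannot be told apart from those of the antisense gene. The next coding genes, AMIGO2 and RPAP3, are 126 and 445 kb away.

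The parts of these transcripts that have 1 place in the genome are shown first, because a read from them can be assigned to 1 locus. A 24-mer (a run of 24 bases) is called repeated here where it has 10 or more copies in GRCh37, both strands counted. The sequences are those of the current annotation, whose version differs from that in the table for 18 of the 20 rows, so that the authors' models may differ. Exon 1 of LINC00426-205 (chr13:30938206-30938333), the isoform with the highest level, overlaps exons of 2 other rows. Exon 2 of LINC00426-209 (chr13:30946422-30946511), the second isoform by level, is shared with 4 other rows, all of them at 0 in every library. Both are given as transcribed from the minus strand, in lower case, as none of their bases is covered by a repeated 24-mer.
LINC00426-205 exon 1: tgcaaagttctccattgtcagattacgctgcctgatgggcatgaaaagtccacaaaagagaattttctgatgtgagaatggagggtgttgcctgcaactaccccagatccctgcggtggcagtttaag
LINC00426-209 exon 2: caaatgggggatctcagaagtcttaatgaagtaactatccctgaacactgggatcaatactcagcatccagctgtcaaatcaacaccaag

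Each 24-mer within these exons occurs once in the genome. Elsewhere both isoforms are related to 7SL RNA. Blocks matching RN7SL pseudogenes, the genomic relatives of 7SL RNA, cover 36.6% of LINC00426-205, with 1 block in the orientation of 7SL and 1 opposite to it, and 63.3% of LINC00426-209, with 2 blocks opposite to it. Single 24-mers of LINC00426-205 have up to 29163 genome copies and those of LINC00426-209 up to 268861.

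PCED1B-AS1-201 is annotated as a retained intron. Its exon 2 (chr12:47609948-47610047) is spliced in the same form in 7 rows of the gene, and its exon 3, of 2342 nt, runs through sequence that the spliced isoforms remove. Within exon 3, 987 nt in a row hold no repeated 24-mer, and their first 200 nt (chr12:47604065-47604264) are shown beside exon 2. The whole stretch also lies within exon 1 of PCED1B-AS1-203, a row listed at 0 in every library. Exon 2 and the stretch are given as transcribed from the minus strand. Coding exons of the opposite strand overlap 95 nt of PCED1B-AS1-201, in part within exon 2. Reads of PCED1B cannot be told apart over those bases.
PCED1B-AS1-201 exon 2: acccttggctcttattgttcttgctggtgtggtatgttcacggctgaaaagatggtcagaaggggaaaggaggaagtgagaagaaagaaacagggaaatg
PCED1B-AS1-201 unrepeated stretch: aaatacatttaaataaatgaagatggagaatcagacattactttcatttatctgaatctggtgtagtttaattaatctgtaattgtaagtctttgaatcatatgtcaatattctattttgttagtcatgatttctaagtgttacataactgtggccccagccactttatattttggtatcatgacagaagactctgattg

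Each 24-mer within these parts, too, occurs once in the genome. Over the whole 2494-nt transcript 6 blocks match RN7SL pseudogenes, 2 in the same orientation and 4 in the opposite one, and cover 39.2% of it. Its 24-mers have up to 84045 genome copies.

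**Figure D1:**
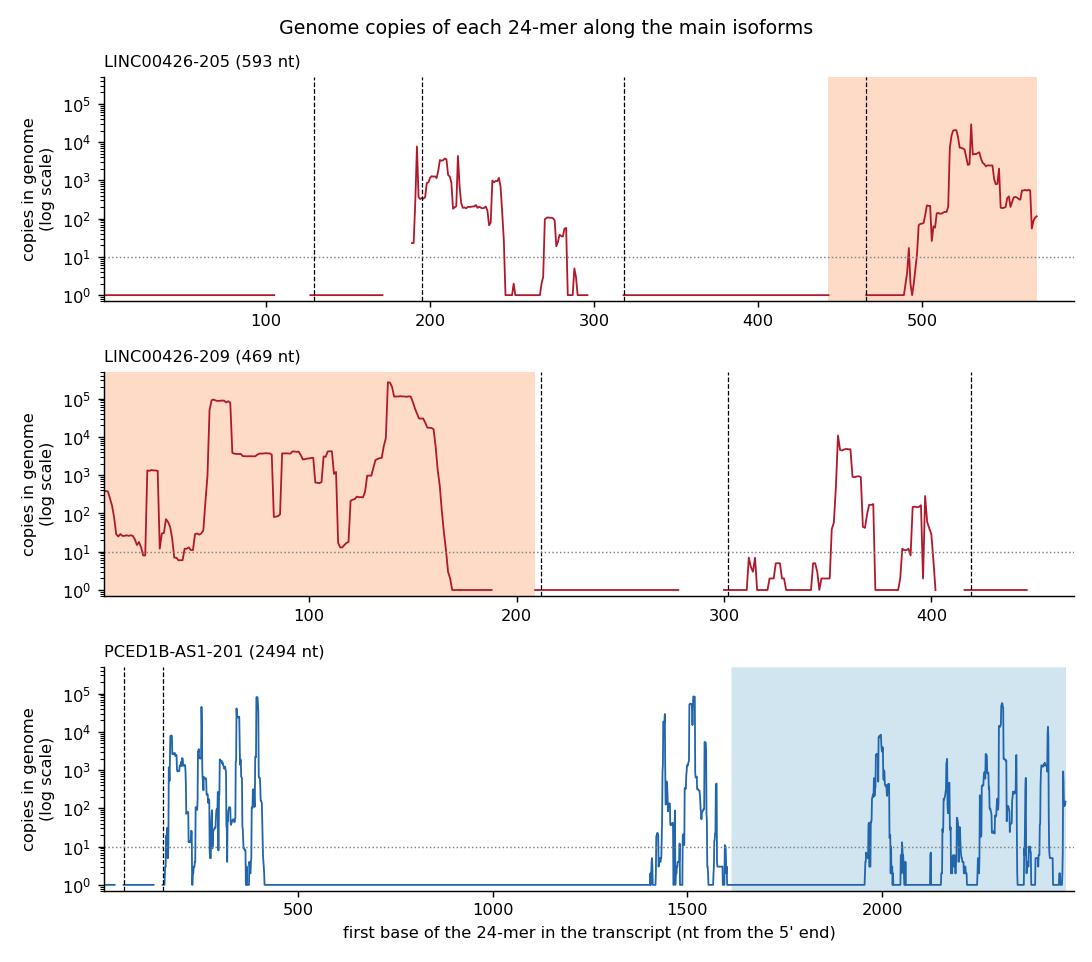
Number of GRCh37 copies of each 24-mer (log axis) against its first base in the 3 main isoforms, with dashed lines at exon starts, a dotted line at 10 copies, shading where the 24-mer is in no other measured row of the gene, and gaps where it spans a junction and is not in the genome. The shaded stretches of LINC00426-205 and LINC00426-209 hold peaks of 29163 and 268861 copies, and PCED1B-AS1-201 has a long middle stretch at 1 copy.

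LINC00426 as a gene, the sum of its rows, was at 314.42, 351.23, 346.34 and 300.15 FPKM in replicates 1 to 4, a mean of 328.0 ± 24.7 FPKM. PCED1B-AS1 was at 93.61, 126.88, 100.05 and 82.24 FPKM, a mean of 100.7 ± 19.0 FPKM. LINC00426 was the more even gene across libraries, with a coefficient of variation (CV) of 7.54% against 18.8% for PCED1B-AS1, and both were highest in replicate 2 and lowest in replicate 4. Size factors over all rows above 0 (median of ratios) were 0.968, 1.12, 1.02 and 0.925 in replicates 1 to 4, which is the same order of libraries as for both genes. After scaling by them, LINC00426 was at 324.8, 314.1, 339.0 and 324.4 FPKM, lowest in replicate 2, and PCED1B-AS1 at 96.69, 113.5, 97.94 and 88.87 FPKM, with CVs of 3.15% and 10.4%. The ranges of the genes did not overlap. On the log2(FPKM + 1) scale LINC00426 exceeded PCED1B-AS1 by 1.74, 1.46, 1.78 and 1.86 in replicates 1 to 4, a mean difference of 1.71 ± 0.17 or 3.27-fold. The difference had the same direction in 4 of 4 libraries. It rests on rows whose model version differs from the annotation: with same-version rows only, LINC00426 has 1 row, at 0, and the difference was -5.79.

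Among 4441 named lncRNA genes of the table, with a median of 1.30 FPKM, LINC00426 ranked 111 and PCED1B-AS1 ranked 418 from the top. Of these genes 38.1% had a sum above 5 FPKM, the cutoff the study set for its screen. Of the 20 member rows, 6 had a mean above 5 FPKM, where 28.4% of all rows did, and 5 were above it in every library. Of the member rows, 10 were listed at 0 in every library, 5 in each gene. Rows at 0 share percentile 24.96 in the median library, the middle of the ranks of all rows at 0. Rows at 0 are thus frequent in the whole table. No share over all rows was taken for the counts of rows at 0 given here and below. Nothing is read from these shares, because the genes were picked by level.

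LINC00426-205 (ENST00000429808, 593 nt, 5 exons) was at 195.84, 225.86, 232.45 and 203.77 FPKM in replicates 1 to 4, a mean of 214.5 ± 17.5 FPKM. LINC00426-209 (ENST00000452659, 469 nt, 4 exons) was at 117.1, 123.23, 112.05 and 93.57 FPKM, a mean of 111.5 ± 12.8 FPKM. These isoforms held nearly all of the gene sum. LINC00426-205 took 62.29%, 64.31%, 67.12% and 67.89% of it, 65.4 ± 2.6%, and LINC00426-209 took 37.24%, 35.09%, 32.35% and 31.17%, 34.0 ± 2.7%. LINC00426-205 was above LINC00426-209 in 4 of 4 libraries, by 0.94 ± 0.17 on the log2(FPKM + 1) scale. In the median library LINC00426-205 stood at percentile 97.5 of all rows and LINC00426-209 at percentile 95.04.

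LINC00426-201 (ENST00000416261, 1155 nt, 3 exons), the third isoform, was at 1.48, 2.14, 1.84 and 2.59 FPKM, a mean of 2.01 ± 0.47 FPKM. LINC00426-209 lay 5.23 ± 0.36 above it on the log2(FPKM + 1) scale, with that direction in 4 of 4 libraries. Of its 24-mers, 598 are in no other measured row, 577 of them occur once in the genome, none of the 598 is repeated, and no block matches RN7SL pseudogenes. LINC00426-202, listed at 0, 0, 0 and 0.22 FPKM, has 716 24-mers of its own, of which 675 occur once and 2 are repeated. LINC00426-203, LINC00426-204, LINC00426-206, LINC00426-207 and LINC00426-208 were listed at 0 in all 4 libraries.

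PCED1B-AS1-201 (ENST00000500365, 3 exons), the main isoform of PCED1B-AS1, was at 51.23, 61.5, 56.12 and 49.09 FPKM, a mean of 54.5 ± 5.5 FPKM. Its share of the gene sum was 54.73%, 48.47%, 56.09% and 59.69%, 54.7 ± 4.7%, below the 65.4% of LINC00426-205. The measured rows cover 11 of 64 annotated isoforms of PCED1B-AS1 and 9 of 13 of LINC00426, so both shares are of the measured rows only. By estimated fragments the order of the main shares turned round, with 82.6% for PCED1B-AS1-201 and 70.7% for LINC00426-205. PCED1B-AS1-201 stood at percentile 90.7 of all rows in the median library. It is the only member row above 0 whose version in the table equals that in the annotation used for the sequences.

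PCED1B-AS1-206 (ENST00000550426, 708 nt) was at 23.83, 24.34, 29.37 and 14.23 FPKM, a mean of 22.9 ± 6.3 FPKM. PCED1B-AS1-205 (ENST00000548222, 662 nt) was at 16.4, 27.64, 10.25 and 10.11 FPKM, a mean of 16.1 ± 8.2 FPKM. The ranges of both overlapped, and their order turned round in replicate 2, with a mean difference of 0.56 ± 0.66 on the log2(FPKM + 1) scale. PCED1B-AS1-202 (ENST00000547600, 550 nt) was at 2.15, 10.49, 0 and 8.04 FPKM, a mean of 5.17 ± 4.9 FPKM. It passed 5 FPKM on the mean only through replicates 2 and 4, and stands just above that level. These are the libraries titled with H, and replicates 1 and 3, both lower, are titled with L. The part of whatever the letters stand for was not tested. Counting alone would give the row a CV of 29.0%, against 95.01% observed. The first value leaves out the division of reads among isoforms that share sequence. Without replicate 2, and likewise without replicate 4, 5 member rows in place of 6 had a mean above 5 FPKM. PCED1B-AS1-204 (ENST00000547851, 1261 nt) was at 0, 2.91, 1.7 and 0.77 FPKM, and its order with PCED1B-AS1-202 turned round in replicate 3 (mean difference 1.03 ± 1.68 on the log2(FPKM + 1) scale). PCED1B-AS1-211 was at 2.61 FPKM in replicate 3 and at 0 in the other libraries, and PCED1B-AS1-203, PCED1B-AS1-207, PCED1B-AS1-208, PCED1B-AS1-209 and PCED1B-AS1-210 were listed at 0 in all 4.

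**Figure D2:**
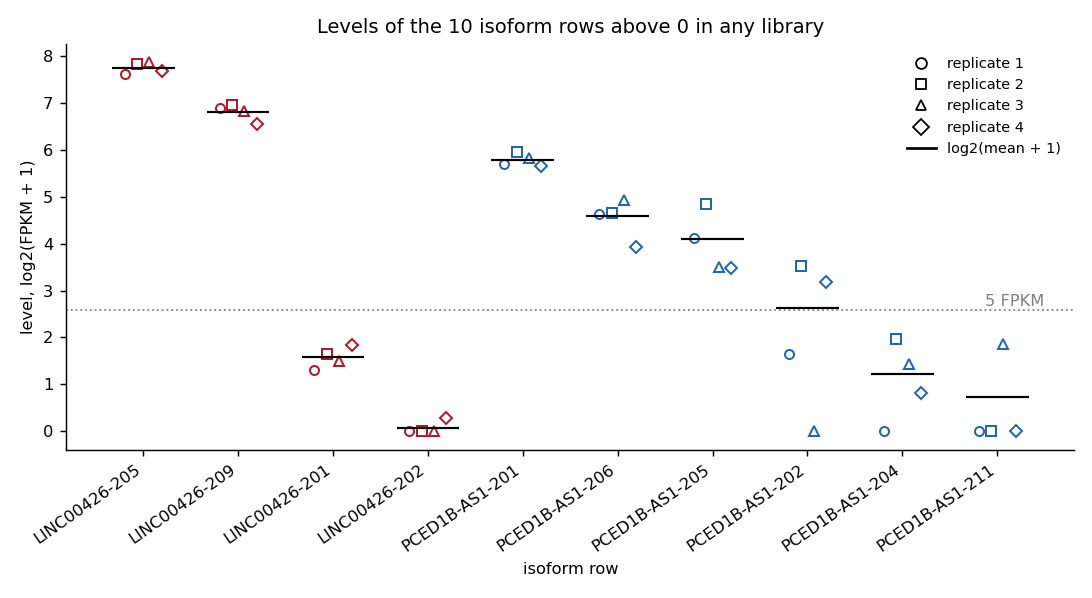
Level of each isoform row above 0 in any library, as log2(FPKM + 1), with 1 symbol per replicate and a line at log2(mean + 1), LINC00426 rows in red and PCED1B-AS1 rows in blue. LINC00426-205 and LINC00426-209 vary little between the 4 libraries around means of 214.5 and 111.5 FPKM, while PCED1B-AS1-202 ranges from 0 to 10.49 FPKM.

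The short spliced rows of PCED1B-AS1 share most of their sequence with rows listed at 0, while PCED1B-AS1-203 and PCED1B-AS1-204 have 644 and 504 24-mers of their own. PCED1B-AS1-206 has no 24-mer of its own: 79.4% of its 24-mers are also in PCED1B-AS1-209, 79.3% in PCED1B-AS1-207 and 85.3% in PCED1B-AS1-203, all listed at 0. Of the 24-mers of PCED1B-AS1-205, 93.4% are also in PCED1B-AS1-209 and 93.6% in PCED1B-AS1-204, and 21 are its own. PCED1B-AS1-202 has 12 of its own, and 93.9% of its 24-mers are in PCED1B-AS1-207. PCED1B-AS1-201, with 860 of its own, 532 of them at 1 genome copy, was the steadiest row of the gene, at a CV of 10.1%. Its estimated 628 fragments a library would give a CV of 3.99% from counting alone. The division of reads among isoforms by the estimation program was not tested here.

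Repeated sequence was then compared among the rows. It made up 25.6% of the 24-mers of LINC00426-205, 43.3% of LINC00426-209 and 21.9% of PCED1B-AS1-201. With 36-mers in place of 24-mers these values were 14.5%, 22.1% and 9.43%. In all, 10 of the 20 member rows had at least 20% repeated 24-mers, where 7.44% of 18221 matched rows over 200 nt did, but repeat content was part of the choice of the genes and nothing is read from this count. Rows at comparable levels are also rich in repeats. The median was 20.2% over 722 rows within 2-fold of LINC00426-205, and 63.99% of them had less than it. Within 2-fold of LINC00426-209 the median was 16.9% over 1151 rows, and 95.7% had less. Within 2-fold of PCED1B-AS1-201 it was 12.8% over 1583 rows, and 77.2% had less. Over all matched rows above 200 nt the median was 0.

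Within LINC00426 the rows at the 2 highest levels were those with the most repeated sequence. LINC00426-205 and LINC00426-209 had 25.6% and 43.3%, and the 5 rows at 0 had 0 to 17.7%, with a median of 2.17%. PCED1B-AS1 showed no such separation. Its 5 rows with a mean of at least 1 FPKM had 21.9% to 35.6%, with a median of 26.3%, and its 5 rows at 0 had 10.8% to 31.7%, with a median of 16.1%.

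**Figure D3:**
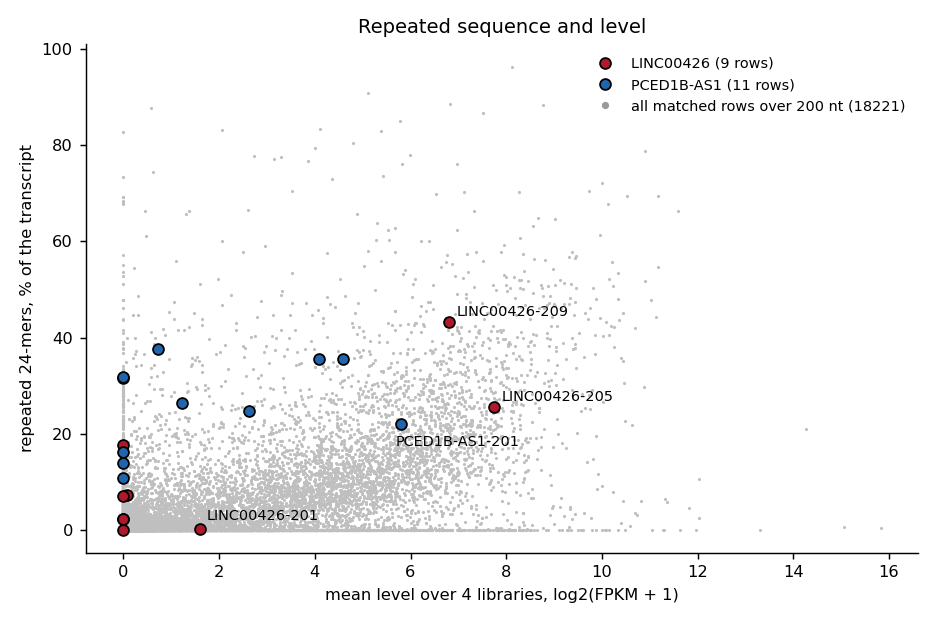
Percentage of repeated 24-mers against the mean level as log2(FPKM + 1), for the 9 rows of LINC00426 (red), the 11 rows of PCED1B-AS1 (blue) and all 18221 matched rows over 200 nt (grey dots). LINC00426-209 lies above most rows of its level at 43.3%, and LINC00426-201 lies near 0 on the repeat axis.

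The contrast was sharper by stretch of sequence than by row, but only among stretches whose rows were all at 1 level. The 9 rows of LINC00426 together hold 4513 distinct 24-mers, of which 7.67% are repeated. Of the 337 that occur only in rows above 5 FPKM, 234 (69.4%) are repeated and 47 occur once in the genome. Of the 1668 that occur only in rows listed at 0, 4 (0.240%) are repeated and 1518 occur once. Of the 1314 found only in rows above 0 and up to 5 FPKM, 2 (0.152%) are repeated. The other 1194, held by rows of more than 1 level, were 8.88% repeated, and 933 of them occur once. Sequence that rows above 5 FPKM share with rows at 0 falls in this last group, so the grouping itself shapes the contrast. For example, the 1330-nt last exon of LINC00426-203 (chr13:30914404-30915733) and the 1199-nt last exon of LINC00426-207 (chr13:30914407-30915605) hold no repeated 24-mer, and both rows were at 0. The table has 1 value per row and none per exon, and the unrepeated exons 1, 2 and 4 of LINC00426-205 all overlap rows listed at 0. LINC00426-208, at 0, has 78.3% of its 24-mers in LINC00426-205, and 55.6% of those of LINC00426-205 are in LINC00426-204, also at 0.

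In the sequence held by LINC00426-205 alone, 75 of 128 24-mers (58.6%) are repeated, against 71 of 442 (16.1%) in the sequence it shares with other rows. In LINC00426-209 it was 159 of 209 (76.1%) in its own sequence, against 34 of 237 (14.3%) in the shared part. In PCED1B-AS1-201 the gap was small, with 25.6% of 860 24-mers repeated in its own sequence, against 19.9% of 1611 in the shared part. Of the 893 24-mers only in its rows above 5 FPKM, 223 (25.0%) are repeated and 532 occur once. Of the 523 only in rows above 0 and up to 5 FPKM, 98 (18.7%) are repeated, and of the 710 only in rows at 0, 15 (2.11%) are repeated and 647 occur once. The other 2087 24-mers of PCED1B-AS1, held by rows of more than 1 level, were 18.4% repeated. The part of repeated sequence in the levels was not tested.

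**Figure D4:**
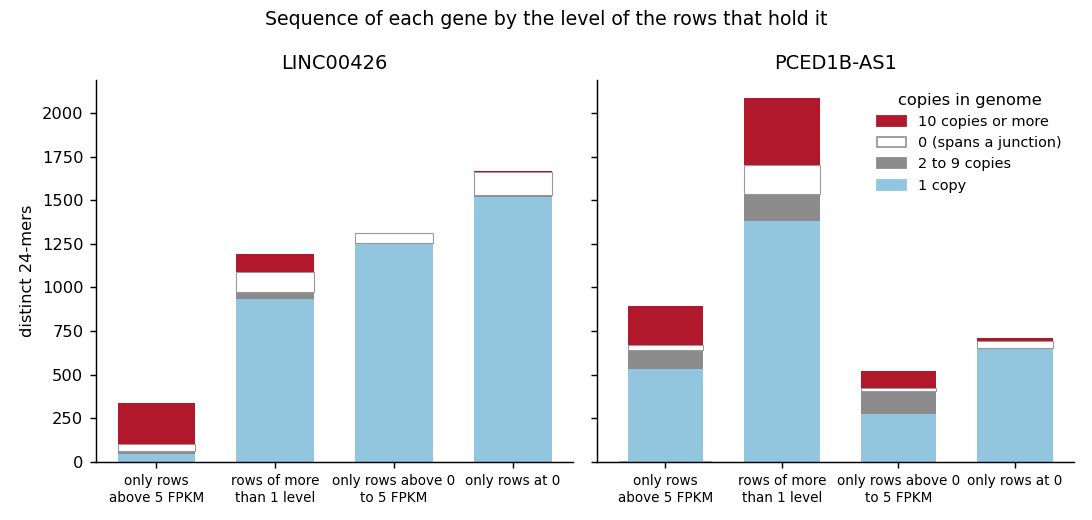
Distinct 24-mers of each gene, grouped by the level of the rows that hold them and stacked by their copies in the genome. The bar of LINC00426 for rows above 5 FPKM is mostly repeated (234 of 337), whereas 4 of the 1668 24-mers held only by rows at 0 are repeated.

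Stretches of the members also recur exactly in non-coding transcripts of other genes. Of the 24-mers of LINC00426-205, 13.2% are in the sense strand of rows of other genes, 119 rows in all, and for LINC00426-209 it was 25.3%, in 679 rows. For PCED1B-AS1-201 it was 11.2%, in 771 rows, and for PCED1B-AS1-206 17.1%, in 387. Rows at 0 shared as much in part, such as PCED1B-AS1-207 with 15.4% in 373 rows, PCED1B-AS1-209 with 15.2% in 374 and LINC00426-208 with 11.2% in 38. LINC00426-201 and LINC00426-206 shared no 24-mer with another gene, and these rows were at 2.01 and 0 FPKM.

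The other lncRNAs of blood and immune cells were read from a list of 32 genes, of which 25 had a row. Of these, 12 were above 5 FPKM and 4 were listed at 0, with a median of 1.77 FPKM, beside 38.1% above 5 FPKM and a median of 1.30 FPKM over the named lncRNA genes. CD27-AS1, antisense to CD27, which encodes a costimulatory receptor of lymphocytes, was at 258.2 ± 42.1 FPKM, LINC00996 at 72.3 ± 7.3 FPKM, LINC00926, known from B cells, at 64.1 ± 6.7 FPKM, and PELATON, known from monocytes and macrophages, at 47.5 ± 2.0 FPKM. The host genes of miR-142 and miR-155, which are among the defining microRNA hosts of blood cells, gave almost none. MIR142HG was at 0.14 FPKM in replicate 1 and at 0 in the others, and MIR155HG was at 0 in all 4 libraries, as was PRKCQ-AS1. IFNG-AS1, antisense to the gene of interferon gamma, was at 0.32 FPKM on average and ITGB2-AS1 at 0.74 FPKM. The 10 blood cell markers are all part of the list of 32 genes, so they are not a second set. Of them 8 were measured, 3 were above 5 FPKM (LINC00861, LINC00926 and LINC00996) and 2 were at 0. Their sums were 131.9 to 162.9 FPKM per library. The liver marker HULC was at 693.2 ± 64.8 FPKM, and the other 6 measured of 9 liver lncRNAs were at 1.56 FPKM or less, with LINC01093 at 0. In bulk libraries of 1 cell line, a high level in few of its cells and a low level in all of them cannot be told apart.

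In the immune list repeated sequence also went with level, but this is not particular to the list. Over all matched rows above 200 nt the median was 0, and over those with a mean of at least 0.1 FPKM it was 2.21%. Over rows within 2-fold of the 3 main isoforms it was 12.8% to 20.2%. The 12 genes above 5 FPKM had 0 to 39.9% repeated 24-mers in their highest row, with a median of 8.67%, and the 13 at 5 FPKM or less had 0 to 2.32%, with a median of 0. CD27-AS1 was at the top of both, at 39.9%, and MIR3142HG had none. MIR3142HG was at 8.87, 3.06, 8.84 and 2.78 FPKM in replicates 1 to 4, a mean of 5.89 ± 3.43 FPKM, so that it passed 5 FPKM through replicates 1 and 3, the libraries titled with L. The markers of blood cells are genes of this same list. The 3 above 5 FPKM had 4.34% to 15.1%, and the other 5 had 0 to 1.82%. In the liver list HULC, at 693.2 FPKM, had 3.25%, and the other 6 measured genes, at 5 FPKM or less, had 0. The immune list was fixed with earlier results of these data known, and no test was made of these splits.

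The rows near each gene were read beside the 28.4% of all rows above 5 FPKM. Within 500 kb of LINC00426, 10 other rows were measured, 5 of them at 0, and LINC00365-202, 231 kb away, was the one above 5 FPKM, at 25.7 ± 4.9 FPKM. Within 500 kb of PCED1B-AS1, 3 of 7 other rows were above 5 FPKM and 1 was at 0. Those above were ENST00000552063 and ENST00000547777 of ENSG00000258181, at 13.1 ± 7.1 and 6.34 ± 2.8 FPKM and 32.6 and 31.6 kb away, and RPAP3-DT-204 at 9.71 ± 3.6 FPKM. LINC00427-201, 20.4 kb from LINC00426, was at 0 in every library.

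The named lncRNA genes closest to LINC00426 over the 4 libraries, by Euclidean distance of log2(FPKM + 1), were ENTPD1-AS1 (distance 0.111, 316.6 ± 21.2 FPKM), TPT1-AS1 (0.154, 320.5 ± 29.5 FPKM) and TNFRSF10A-DT (0.157, 344.9 ± 29.1 FPKM). Those closest to PCED1B-AS1 were RSF1-IT1 (0.189, 100.7 ± 21.4 FPKM), AHI1-DT (0.191, 104.1 ± 18.8 FPKM) and DDR1-DT (0.195, 104.6 ± 16.2 FPKM). The highest rows of these 6 genes had 14.7% to 37.6% repeated 24-mers. The measure takes level and pattern together, over 4 libraries that share a group.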

How the data were processed

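RNA of HUH7 cells was sequenced in 4 strand-specific libraries (replicates 1 to 4). The authors deposited FPKM for non-coding transcripts, made with Bowtie 1.01 and RSEM 1.2.3 on an Ensembl non-coding annotation of hg19 (GRCh37), as the study's methods and the processing notes of the submitters state. No scaling between libraries is described, and the strand setting of the alignment is not given in the sources used here. Coding transcripts were outside that reference, and reads that match more than 1 transcript were divided by the estimation of RSEM.

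Identifiers were matched to GENCODE release 44 mapped to GRCh37: 18373 of 19835 matched, 11445 with the same version. Of the 20 member rows 2 had the same version, so that the models behind the others may differ from the sequences used here. Gene values are sums of rows. Repeated sequence is the percentage of all 24-mers of a transcript found at least 10 times in the genome, counted on both strands by a program that gave every count right on simulated data. Alu-related blocks were matches of blastn 2.17.0 to 847 RN7SL pseudogene transcripts. Ratios were taken on log2(FPKM + 1) in Python 3.11.15. An exact sign-flip test had been planned for them, but 4 libraries cannot take it below 0.13 and the genes were chosen by these levels, so no p is given. Fragments were estimated from the steps of low values, of which 62.9% to 63.9% lay within 0.05 of a whole fragment, and no count test was run.

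The members and lists were chosen with earlier results of these data known. Named were every member row, the list genes, rows above 5 FPKM within 500 kb, the 3 nearest genes by level, the coding neighbours and, chosen after their values were seen, LINC00427-201. Thresholds, scalings, pseudocounts, k-mer settings and leaving out libraries were tried as alternatives. Some repeat-derived sequence, with the results that rest on it alone, is not reported here.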

Additional observations from a re-analysis of the deposited data

Results flagged for a closer look

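The values checked were the 2 gene sums, the 10 member rows above 0 and 8 isoform shares, 20 in all. In 2 of them 1 library stood apart from the other 3. Both are rows above 0 in that 1 library only. The rule flags any such row, so their number is not set against chance. LINC00426-202 was at 0.22 FPKM in replicate 4 and at 0 in the other libraries. PCED1B-AS1-211 was at 2.61 FPKM in replicate 3 and at 0 in the other libraries. Both rows have a mean below 1 FPKM.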

How the results depend on the processing

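The order of the genes reversed under 1 alternative: with only rows whose version equals the annotation, the log2 difference was -5.79 in place of 1.71. No paired analysis was possible because the 4 libraries form 1 group. With a library left out in turn, LINC00426 ranged from 320.3 to 337.3 FPKM and PCED1B-AS1 from 91.97 to 106.8 FPKM, their log2 difference from 1.66 to 1.79, the shares of the main isoforms from 64.6% to 66.4% and from 53.1% to 56.8%, the rows above 5 FPKM from 5 to 6, and the isoform pairs ordered alike in every library from 4 to 5 (the last alternative was added after the data were seen). Taking the highest row in place of the sum gave 214.5 FPKM for LINC00426 and 54.48 FPKM for PCED1B-AS1. With the same-version rows, LINC00426 was at 0 FPKM, since its 1 such row is listed at 0, and its share could not be computed, while PCED1B-AS1 was at 54.48 FPKM and its main share at 100%. As a share of estimated fragments the main isoforms took 70.7% and 82.6%, which turns their order round, because longer isoforms give more fragments. The repeated part of LINC00426-205, 25.6%, was 21.2% with at least 100 copies and 14.5% with 36-mers. That of PCED1B-AS1-201, 21.9%, was 29.7%, 14.8% and 9.43% with at least 2 copies, at least 100 copies and 36-mers. The depth limits rows of low level, such as PCED1B-AS1-202, more than the 3 main isoforms.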
